A study of Mus musculus with 6 samples.

Results

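Messenger RNAs that mark T cells were followed across 6 arrays of mouse white fat: Cd3d, Cd3e and Cd3g, the coreceptor genes Cd4, Cd8a and Cd8b1, and Cd2, Cd5, Il7r and Lck. These 10 genes were set by symbol, and every probe set that the platform annotation gives to 1 of them alone was taken. That found 15 probe sets for 9 genes, of 45101 probe sets on the array and 34945 with a single gene symbol. Lck, the kinase that phosphorylates the CD3 chains, had no probe set in this annotation and was not analysed here. The AFO group is gonadal (epididymal) white fat of mice with floxed Fto and an adiponectin Cre. The adiponectin promoter drives expression in fat cells. The control group is the same fat from floxed Fto mice with no Cre named. Both groups are male C57BL/6 mice aged 16 weeks, on chow and fed freely, and both carry the floxed Fto alleles. Each group has 3 arrays, 1 for each of pools 1, 2 and 3, and each array holds RNA pooled from a number of mice that is not given in the sources used here. The study calls the pools independent, so the spread between arrays is a spread between pools.

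T cells recognise antigen through a receptor whose variable chains sit with the CD3 gamma, delta and epsilon chains, and those invariant chains carry the signal into the cell. CD4 binds class II and CD8 class I major histocompatibility molecules, and both bring the kinase Lck to the receptor. Visceral white fat is known to hold resident T cells of both kinds among its macrophages and other immune cells.

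The genes of the delta and gamma chains lie next to each other on chromosome 9 and are read in opposite directions. Their start regions are shown with that of Cd3e on the same chromosome and that of Il7r. Among these 4 genes, Cd3g had the largest rise in pool 2 described below and Cd3e the smallest. Each is the RefSeq window of assembly GRCm38.p6 from 250 bases before to 50 bases after the start, 5′ to 3′ on the gene's strand. The windows are chr9:44981536-44981835 (plus strand) for Cd3d, chr9:44980382-44980681 (minus) for Cd3g, chr9:45009562-45009861 (minus) for Cd3e and chr15:9529827-9530126 (minus) for Il7r. The Cd3g and Cd3d windows are 854 bases apart. Capitals mark any match on either strand to 5 short motifs.
Cd3d: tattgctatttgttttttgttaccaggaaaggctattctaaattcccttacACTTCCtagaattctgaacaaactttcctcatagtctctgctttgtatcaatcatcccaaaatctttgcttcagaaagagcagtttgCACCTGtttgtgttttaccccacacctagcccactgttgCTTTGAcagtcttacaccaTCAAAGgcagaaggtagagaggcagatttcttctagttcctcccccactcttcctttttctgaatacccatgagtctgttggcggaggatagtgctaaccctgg
Cd3g: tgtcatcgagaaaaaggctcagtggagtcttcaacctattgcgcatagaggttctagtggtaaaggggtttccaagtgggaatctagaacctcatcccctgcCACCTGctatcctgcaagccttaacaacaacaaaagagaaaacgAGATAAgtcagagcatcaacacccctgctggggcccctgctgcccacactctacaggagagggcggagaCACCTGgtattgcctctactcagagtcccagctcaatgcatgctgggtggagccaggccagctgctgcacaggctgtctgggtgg
Cd3e: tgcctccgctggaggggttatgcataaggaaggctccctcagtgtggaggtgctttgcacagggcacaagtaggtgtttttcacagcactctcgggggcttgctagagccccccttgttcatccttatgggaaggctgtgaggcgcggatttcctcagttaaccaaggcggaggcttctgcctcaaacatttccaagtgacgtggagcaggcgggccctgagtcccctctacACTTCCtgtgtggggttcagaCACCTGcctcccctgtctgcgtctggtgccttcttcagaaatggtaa
Il7r: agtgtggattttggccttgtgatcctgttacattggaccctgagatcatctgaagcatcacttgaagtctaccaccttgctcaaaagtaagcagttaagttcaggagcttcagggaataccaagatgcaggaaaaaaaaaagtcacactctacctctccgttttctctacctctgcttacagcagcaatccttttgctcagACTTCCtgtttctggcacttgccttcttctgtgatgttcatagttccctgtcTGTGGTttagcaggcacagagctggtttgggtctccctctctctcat
The motifs were the E-box CACCTG, the ETS core GGAAGT, the RUNX core TGTGGT, the GATA core AGATAA and the TCF/LEF core CTTTGA. Their letters do not overlap one another in these windows, and the E-box form was chosen after the sequences had been seen. Windows were given for 6 of the 9 measured genes (the 4 shown, Cd5 and Cd8a). Lck, which was not measured, had 2 windows that are left out of these counts; both held the E-box and the ETS core, and 1 the RUNX core. The E-box stood in those of Cd3d, Cd3e, Cd3g and Cd5, 4 of 6, against 20.2% of all 32851 windows in the table. As its form was chosen with the sequences in view, that count is no measure of enrichment. The ETS core stood in Cd3d, Cd3e, Cd5 and Il7r, also 4 of 6, against 23.8% of all windows. Of these 6 windows, the RUNX core was found in that of Il7r (16.8% of all windows), the GATA core in that of Cd3g (11.2%) and the TCF/LEF core in that of Cd3d (16%). The Cd8a window held none of these letters. A match is a description of the sequence and not a binding site.

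The values are RMA levels on a log2 scale, so 1 unit is a doubling, and levels of different probe sets are not compared with each other. Array medians ran from 5.35 to 5.43. Both arrays labelled pool 2 differed from the other 4 and read low for most markers of their labelled depot. Over 7 genes of mesothelium and visceral fat, Msln, Upk3b, Wt1, Krt19, Lrrn4, Upk1b and Tcf21, the mean level in AFO fat was 4.44 in pool 2 against 8.10 and 8.16 in pools 1 and 3. In control fat it was 5.06 in pool 2 against 8.25 and 8.30. Of these 7 genes, 6 were lower in pool 2 by at least 1 log2 unit in both genotypes, against 1.54% of all probe sets. The exception was Krt19, with a difference of -3.16 in AFO but -0.33 in control pool 2. Over 8 fat cell genes, among them Adipoq, which encodes adiponectin, the mean level was 11.27 to 11.83 on the AFO arrays and 11.54 to 11.78 on the control arrays, so fat cell RNA was plain on all 6. In bulk tissue, fewer cells of a type and less RNA per cell cannot be told apart, and this holds for every value below.

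T cell RNA was several times more abundant in pool 2 than in pools 1 and 3, in AFO and control fat alike. Of the 15 probe sets, 14 read higher on both pool 2 arrays than on any of the other 4, against 19.1% of all probe sets. In 13 the pool 2 level exceeded the mean of pools 1 and 3 by at least 1 log2 unit in both genotypes, against 1.33% of all probe sets. The median excess over the 15 was 2.91 log2 units in AFO and 2.40 in control fat, where all probe sets had medians of -0.0070 and -0.0040. In 0 of the 15 was pool 2 lower by that much, against 1.54% of all probe sets. Each genotype has 1 pool 2 array and the study set no contrast between pools, so no test was made of this difference.

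**Figure D1:**
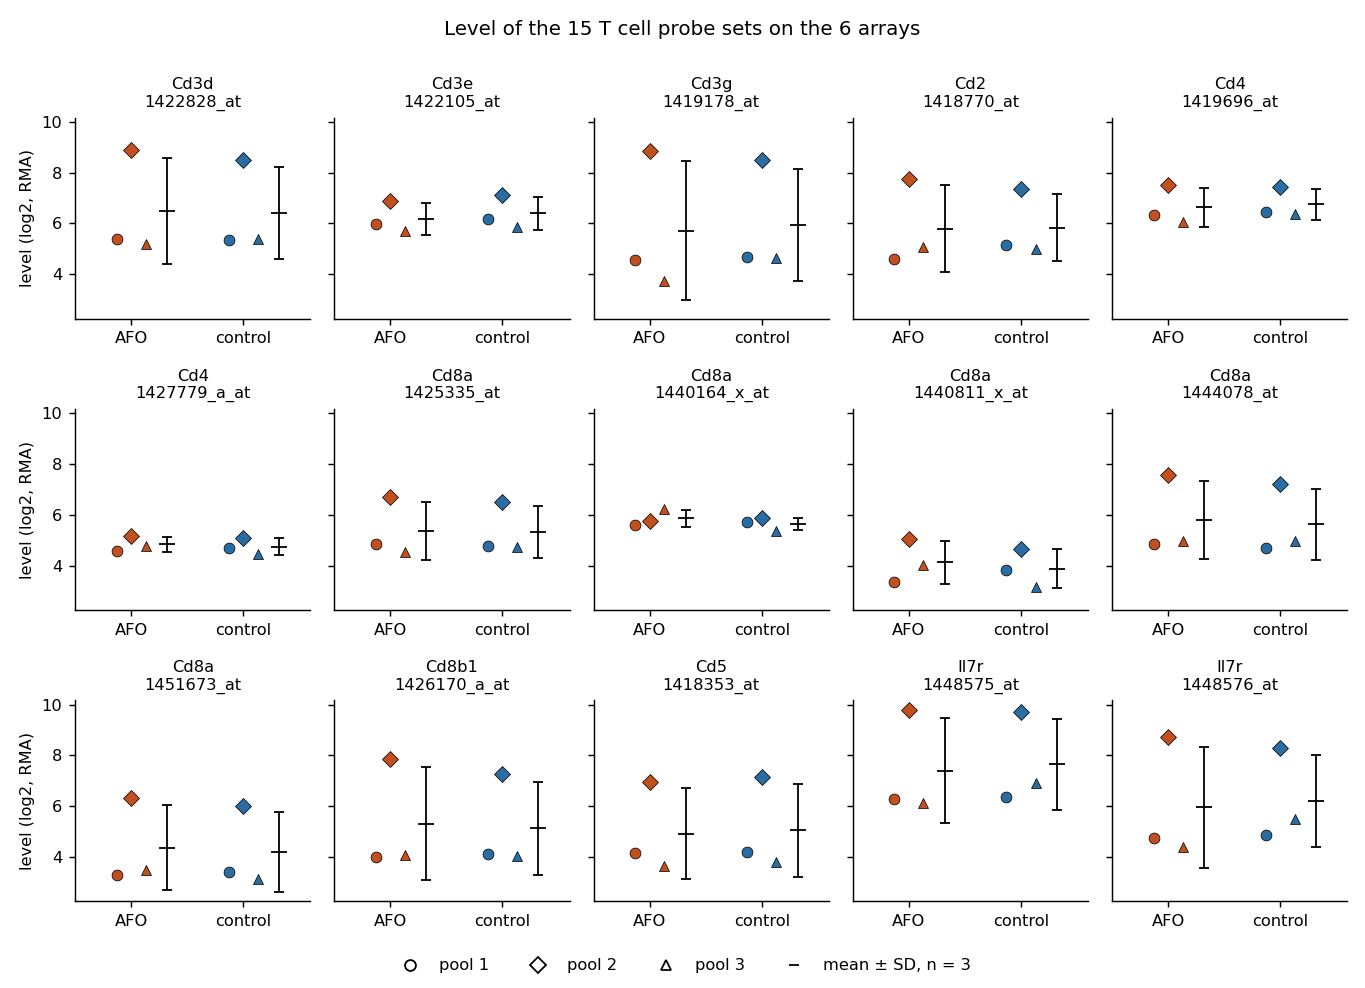
Level of each T cell probe set (log2, RMA) on the 6 arrays, with AFO arrays left of control arrays, 1 marker shape for each pool, and the mean ± SD of 3 arrays beside them. The diamonds of pool 2 lie above the other markers of both genotypes in 14 of the 15 panels, and 1 Cd8a probe set does not follow.

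Among the CD3 chains, Cd3g (Entrez gene 12502), which encodes the gamma chain, had the widest range. It read 4.54, 8.84 and 3.74 in AFO pools 1, 2 and 3, against 4.68, 8.48 and 4.64 in the control pools. The pool 2 excess was 4.70 log2 units in AFO (25.9-fold) and 3.82 in control fat (14.2-fold), and it was the largest of all 15 in both. Cd3d (Entrez gene 12500), the delta chain gene, read 5.39, 8.87 and 5.20 in AFO pools 1 to 3, against 5.34, 8.50 and 5.40 in the control pools. Its 4 arrays of pools 1 and 3 lay within 0.2 units of each other, and its excess in pool 2 was 3.58 and 3.14 in AFO and control fat. Cd3e (Entrez gene 12501), the epsilon chain gene, moved much less on its probe set. It read 5.96, 6.89 and 5.70 in AFO fat, against 6.17, 7.14 and 5.87 in control fat, with an excess of 1.06 in AFO and 1.11 in control pool 2. All 3 subunit genes were thus highest in pool 2 of both genotypes, with unequal steps.

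RNA of both coreceptors read higher in pool 2 on most probe sets. Steps were larger on most CD8 probe sets than on those of Cd4, though probe sets of the same gene also stepped unequally. The main Cd4 probe set (Entrez gene 12504, 1419696_at) read 6.32, 7.51 and 6.06 in AFO pools 1, 2 and 3, against 6.43, 7.45 and 6.38 in the control pools, an excess of 1.32 in AFO and 1.04 in control pool 2. A second one, 1427779_a_at, read 4.59, 5.17 and 4.78 in AFO and 4.68, 5.10 and 4.46 in control fat, an excess of 0.48 and 0.53. Both Cd4 probe sets were highest in pool 2, and the second stayed within 1 unit over all 6 arrays.

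Cd8b1 (Entrez gene 12526), the CD8 beta chain gene, read 3.98, 7.87 and 4.07 in AFO pools 1 to 3, against 4.10, 7.25 and 4.03 in the control pools. Its 4 arrays of pools 1 and 3 were nearly level, and pool 2 exceeded them by 3.84 in AFO and 3.19 in control fat. Cd8a (Entrez gene 12525), the alpha chain gene, had 5 probe sets that did not read alike. Probe set 1444078_at read 4.84, 7.55 and 4.97 in AFO and 4.70, 7.23 and 4.95 in control fat, and 1451673_at read 3.29, 6.31 and 3.50 in AFO and 3.42, 6.02 and 3.14 in control fat. Probe set 1425335_at read 4.85, 6.68 and 4.55 in AFO fat, against 4.75, 6.51 and 4.72 in control fat. These 3 had excesses of 2.64, 2.91 and 1.99 in AFO pool 2, and of 2.40, 2.73 and 1.77 in control pool 2. The other two carry the ending _x_at, which marks probes that can also bind transcripts of other genes. Of these, 1440811_x_at read 3.35, 5.03 and 4.02 in AFO and 3.83, 4.65 and 3.14 in control fat, an excess of 1.34 and 1.17. The last, 1440164_x_at, read 5.60, 5.76 and 6.24 in AFO pools 1 to 3, against 5.70, 5.86 and 5.37 in the control pools. It was the only one of the 15 not highest on both pool 2 arrays, with an excess of -0.16 in AFO and 0.32 in control pool 2.

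The gap between the CD4 and CD8 readings was followed within arrays, as Cd4 less the mean of Cd8a and Cd8b1, each on its probe set of highest mean. Its height has no meaning across probe sets, and only its change between arrays was read. For Cd8a the rule takes 1440164_x_at. The gap was 1.52, 0.70 and 0.90 in AFO pools 1, 2 and 3, against 1.53, 0.89 and 1.68 in the control pools. Pool 2 was lower than the mean of pools 1 and 3 by a difference of -0.51 in AFO and -0.71 in control fat. With the mean of all 5 Cd8a probe sets, chosen after seeing the data, these differences were -1.47 and -1.39, and with 1444078_at, also chosen afterwards, -1.92 and -1.75. The gap was narrower in pool 2 in both genotypes under all 3 readings of Cd8a, while its size depended on the probe set. All 3 share the same Cd4 and Cd8b1 values, so they are not independent of each other. In the first, Cd8a moved by -0.16 in AFO and 0.32 in control pool 2, less than Cd4 (1.32 and 1.04). The narrowing there came from Cd8b1 (3.84 and 3.19). The gap averaged 1.04 ± 0.43 on the AFO arrays and 1.37 ± 0.42 on the control arrays (SD, n = 3 each). The difference of -0.33 is smaller than those spreads. Within pools it was -0.0073, -0.20 and -0.78 for pools 1, 2 and 3, so most of it came from pool 3, and with 1444078_at the pool values were -0.13, -0.41 and -0.35.

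Cd2, Cd5 and Il7r, which encode an adhesion receptor, a brake on receptor signalling and the receptor for the survival cytokine interleukin 7, moved with the CD3 genes. Cd2 (Entrez gene 12481) read 4.58, 7.74 and 5.07 in AFO fat, against 5.14, 7.35 and 4.99 in control fat, with a pool 2 excess of 2.91 and 2.29. Cd5 (Entrez gene 12507) read 4.16, 6.96 and 3.62 in AFO fat, against 4.19, 7.13 and 3.81 in control fat, with an excess of 3.07 and 3.13. Il7r (Entrez gene 16197) had 2 probe sets that ranked the 6 arrays alike. On 1448575_at it read 6.27, 9.80 and 6.13 in AFO pools 1 to 3, against 6.34, 9.70 and 6.90 in the control pools. On 1448576_at it read 4.76, 8.70 and 4.38 in AFO fat, against 4.85, 8.28 and 5.50 in control fat. Both put pool 2 highest and control pool 3 above the remaining 3 arrays. Their pool 2 excess was 3.60 and 4.13 in AFO, and 3.07 and 3.10 in control fat.

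**Figure D2:**
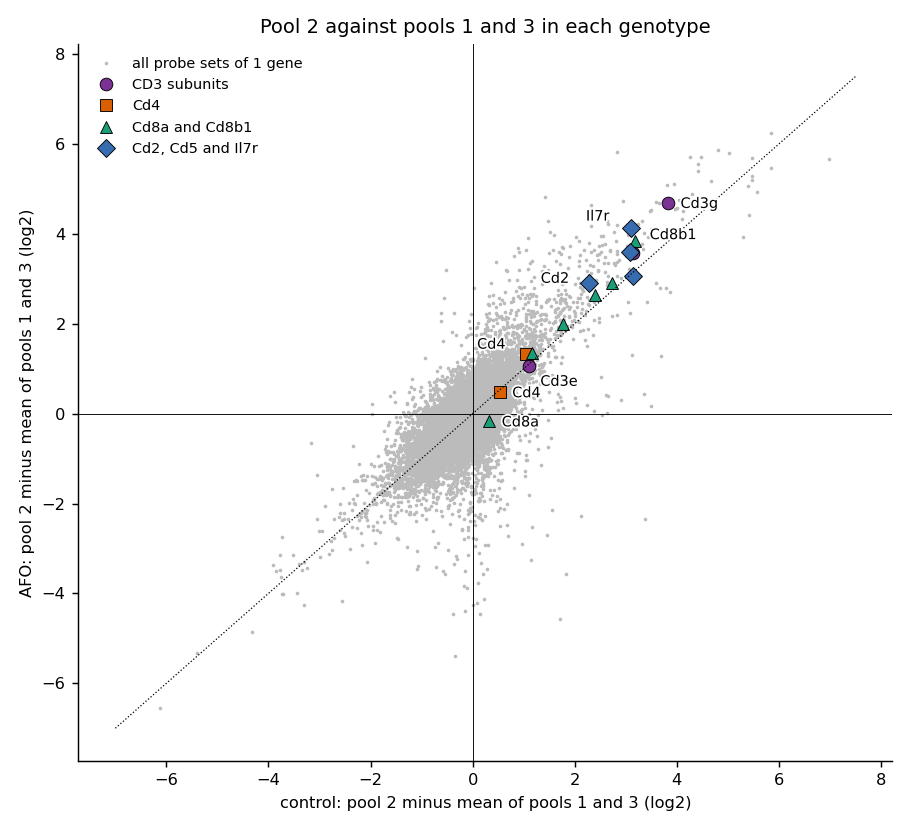
Pool 2 level minus the mean of pools 1 and 3 (log2), control fat on the horizontal and AFO fat on the vertical axis, for all 34945 probe sets of 1 gene (grey) and the 15 T cell probe sets (coloured, a few named), with a dotted line of equality. Of the T cell probe sets 13 lie beyond 1 on both axes, Cd3g farthest at 3.82 and 4.70, and a second Cd4 and 1 Cd8a probe set lie in the grey mass.

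Other genes of the T cell programme also stood higher in pool 2. The lists of such genes are read from 1 probe set a gene, that of highest mean, over which 1.75% of all genes exceeded pools 1 and 3 by at least 1 unit in both genotypes. Of 15 measured genes of the receptor and its signalling (22 were listed and 7 not analysed), 8 did so. The list medians were 1.65 in AFO and 1.19 in control fat. These 8 include Lat, the adaptor that the receptor kinases phosphorylate (2.53 and 1.71), and Cd247, the zeta chain gene (2.20 and 2.20). The adaptor Lcp2 gave 1.65 and 0.89, and Zap70, the kinase that docks on the CD3 chains, 0.35 and 0.29. Another Zap70 probe set, looked at after the values were seen, read 4.25, 6.06 and 4.53 in AFO fat, against 4.41, 5.50 and 4.16 in control fat, so the probe sets of this gene did not agree in size. Tcra, the only gene of a variable receptor chain measured in this list, did not step (-0.0084 and 0.16). Its probe set had a low mean level of 2.36. Of 12 coreceptor and costimulation genes 5 passed that step, among them Cd28 (2.86 and 2.62), Cd27 (2.48 and 1.97) and Cd6 (1.49 and 1.57), while Icos gave 0.90 and 0.75, Ctla4 1.01 and 0.46 and Cd40lg 0.18 and 0.47. Of 9 genes of naive and recirculating T cells 6 passed it, among them the homing receptor Ccr7 (4.03 and 3.37) and the transcription factors Bcl11b (2.38 and 2.04) and Lef1 (1.74 and 1.23). The other 3 were Gata3 (0.48 and 1.504), S1pr1, the receptor by which T cells leave lymphoid tissue (-0.40 and -0.33), and Klf2, a transcription factor that upholds its expression (-0.066 and 0.67). These are bulk values, and which cells gave the RNA of these 3 genes was not tested.

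Genes of T cell subsets and of neighbouring lymphocytes did not step up equally. Of 10 cytotoxic effector genes 3 passed, and the list medians were 0.84 in AFO and 0.79 in control fat. The 3 were Ccl5, a chemokine of effector T cells (3.74 and 3.23), Nkg7 (2.15 and 1.89) and Tbx21 (1.43 and 1.08). The granzymes Gzma (1.22 and 0.89) and Gzmb (0.87 and 0.99) and the pore protein gene Prf1 (0.69 and 0.69) stepped less. Of 6 regulatory T cell genes 1 passed, Tnfrsf18 (1.64 and 1.31). Foxp3, their defining transcription factor, gave 0.65 and 0.42, but its probe set had a low mean level of 3.03, under the 40th percentile (4.88). Of 9 genes around the interleukin 7 receptor 0 passed, with Il7 itself at 0.49 and 0.064, Stat5a at -0.061 and 0.14 and Bcl2 at 0.48 and 0.47. Of 9 natural killer cell genes 1 passed, Klrd1 (3.19 and 2.46), while the defining receptor Ncr1 gave 0.65 and 0.30. Of 6 thymocyte genes 0 passed, with Rag1 at 0.19 and 0.54 on a probe set of low mean level (3.03).

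Markers of other cells moved in pool 2 as well. The B cell list had 8 of 9 genes past that step, and its mean level was 7.82 in AFO pool 2 against 4.78 and 4.71 in AFO pools 1 and 3, and 7.24 in control pool 2 against 5.16 and 4.76 in control pools 1 and 3. Ms4a1, the gene of the B cell antigen CD20, exceeded pools 1 and 3 by 4.70 in AFO and 3.59 in control fat. Of 5 genes of lymph node stroma and vessels 2 were past the step, Glycam1, made by the vessels through which lymphocytes enter lymph nodes (6.24 and 5.84), and the chemokine Cxcl13 (3.77 and 3.33). The other 3 were Madcam1 (0.29 and 0.51), Lyve1 (-0.074 and 0.042) and Chst4 (-0.38 and -0.62). All 8 skeletal muscle genes were also past it, and their mean level was 9.70, 12.07 and 5.14 in AFO pools 1, 2 and 3, against 5.39, 9.67 and 5.01 in the control pools. The part of these cells and tissues in the T cell values was not tested. Of 10 macrophage genes 0 passed, with list medians of 0.30 in AFO and -0.25 in control fat.

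**Figure D3:**
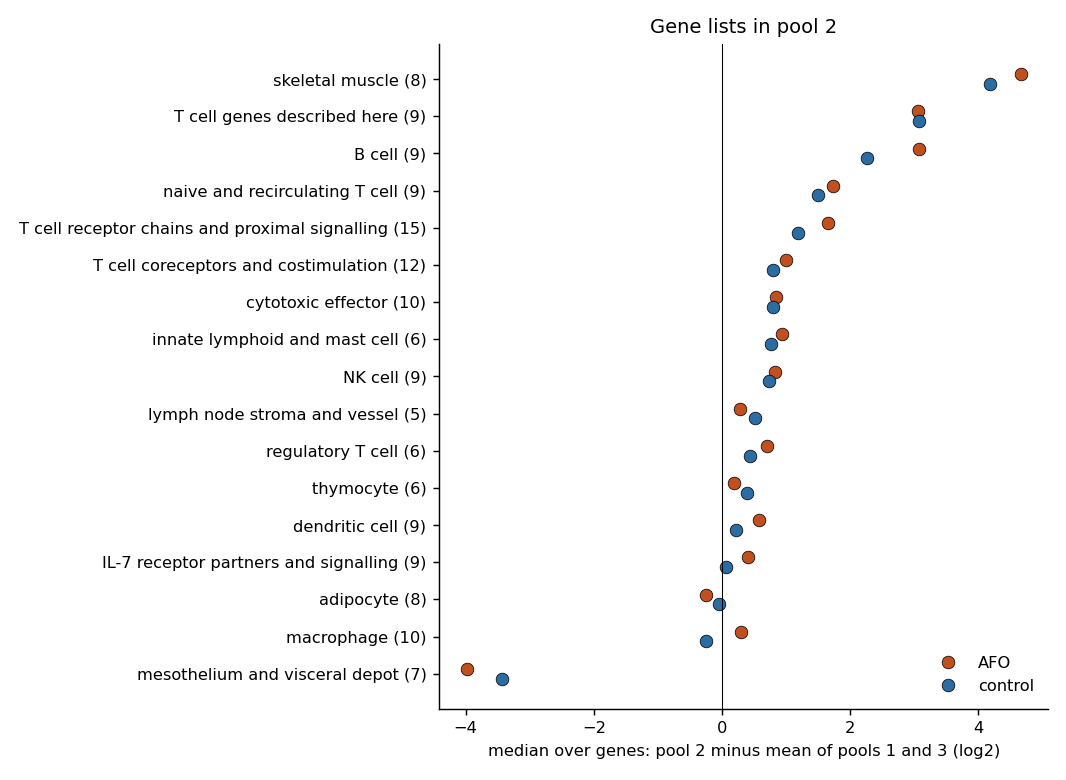
Median over the genes of each list of the pool 2 level minus the mean of pools 1 and 3 (log2), in AFO and control fat, with the number of measured genes in brackets. The T cell genes described here lie at 3.07 in both genotypes, beside the B cell list at 3.08 and 2.27, and the mesothelial and visceral list lies at -3.98 and -3.44.

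By likeness of profile, the mean of the 9 measured genes over the 6 arrays, centred on its own mean, was set against 13444 other genes treated alike. The measure was the root mean square difference over the 6 arrays, in log2 units. The nearest was Ly6d at 0.075, followed by Epsti1 at 0.10, Acap1 and Slfn1 at 0.12, Ifi209, Jakmip1 and Ptpn22 at 0.13, and Il1r2, Rac2 and Ptprc at 0.15. All 6 arrays enter this measure, and the step in pool 2 makes up most of each profile.

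No T cell gene passed the test between AFO and control fat. In the comparison of genotypes by limma, fitted over all 34945 probe sets without pairing, 0 of the 15 T cell probe sets passed a Benjamini-Hochberg adjusted p of 0.05, and 0% of all probe sets did. At an unadjusted p under 0.05 there were 0 of 15, against 1.24% of all probe sets. With pool number as a block 0 of the 15 passed either threshold, against 0.00572% of all probe sets at the adjusted one (Bex1 and Mlf1, chosen after their values were seen) and 3.45% at the unadjusted one. AFO and control values overlapped in all 15, whereas 3.97% of all probe sets were free of overlap. The 3 AFO arrays lay wholly above the control arrays in 0 of 15 (1.95% of all probe sets) and wholly below them in 0 of 15 (2.02% of all). The differences, AFO minus control, ran from -0.26 for the Il7r probe set 1448576_at to 0.26 for Cd8a on 1440811_x_at. Of the 15, 8 were higher and 7 lower in AFO fat, with a median of 0.031 against -0.019 over all probe sets. With 1 probe set a gene, that of highest mean, 3 of 9 genes were higher and 6 lower (median -0.12), as Cd8a, Cd4 and Il7r then count once each.

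With pool 2 in both groups the unpaired intervals were wide. Cd3d averaged 6.49 ± 2.07 over the AFO arrays and 6.41 ± 1.81 over the control arrays (SD, n = 3 each), a difference of 0.074 with a 95% interval from -2.77 to 2.91 (limma adjusted p = 0.999956). Cd3e averaged 6.18 ± 0.63 in AFO and 6.39 ± 0.66 in control fat, and its difference of -0.21 had an interval from -1.19 to 0.77 (limma adjusted p = 0.999956). Using pool number as a block assumes that equal numbers pair the arrays. The intervals were then narrower, from -0.30 to 0.44 for Cd3d and from -0.51 to 0.083 for Cd3e (limma adjusted p = 0.998391 for both). Over the 15 probe sets the blocked intervals on all 6 arrays reached at most -0.97 (Il7r on 1448576_at) and 0.88 (Cd8a on 1440811_x_at). In that fit none reached a 2-fold difference, which did not hold for the blocked fit without pool 2 given below. Cd4 on 1419696_at differed by -0.13 (standard error 0.45), Cd8b1 by 0.18 (1.26) and Cd8a on 1444078_at by 0.16 (0.91). Under the block the standard errors of these 3 were 0.13, 0.18 and 0.13, and the differences still did not pass (limma adjusted p = 0.998391).

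**Figure D4:**
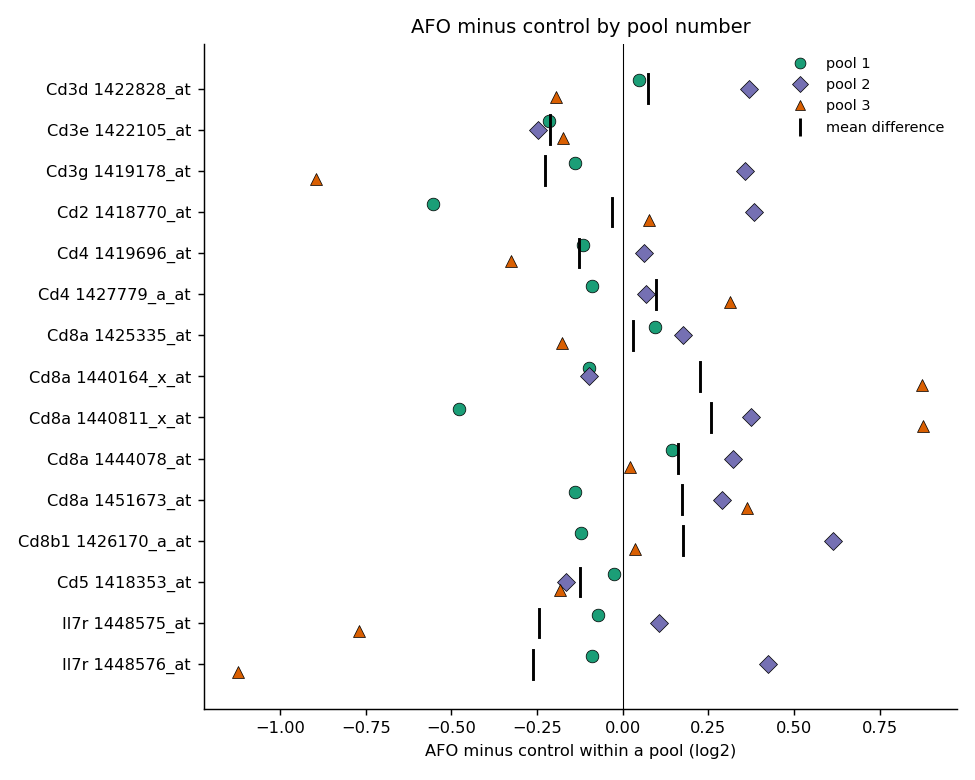
AFO minus control (log2) within pools 1, 2 and 3 for the 15 T cell probe sets, with the mean difference as a bar. The pool 2 diamonds lie right of 0 in 12 of 15, the pool 1 circles left of 0 in 12 of 15, and the most distant points are pool 3 values of the Il7r, Cd3g and Cd8a _x_at probe sets.

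Within pools the genotype difference went both ways. In pool 1 AFO was higher for 3 of 15 T cell probe sets (49.9% of all probe sets), with a median of -0.097. In pool 2 it was higher for 12 of 15 (46.9% of all), with a median of 0.29, led by Cd8b1 at 0.61 and Il7r on 1448576_at at 0.42. In pool 3 it was higher for 7 of 15 (46.6% of all), with a median of -0.18. The B cell list had medians of -0.36, 0.61 and -0.14 in the same 3 pools, and its part in the T cell values was not tested. Il7r was lower in AFO pool 3 on both probe sets, by differences of -0.77 and -1.12, and Cd3g was lower there by a difference of -0.89. Cd8a on the _x_at probe sets was higher there, by 0.87 and 0.88, while the other 3 Cd8a probe sets gave -0.18, 0.022 and 0.36. Cd3e and Cd5 were lower in AFO fat in all 3 pools (12.5% of all probe sets were), Cd3e by differences of -0.21, -0.25 and -0.18. Cd8a on 1444078_at was higher in all 3 (9.44% of all), by 0.14, 0.32 and 0.022.

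Without both pool 2 arrays, 2 arrays a genotype remained and 0 of the 15 passed, against 0.455% of all probe sets. The median difference was then -0.074, with 5 of the 15 higher and 10 lower in AFO fat, beside -0.020 over all probe sets. The Il7r probe set 1448576_at differed by -0.61 with a 95% interval from -1.20 to -0.0096 (limma adjusted p = 0.999567), and the other Il7r probe set by -0.42 (adjusted p = 0.999567). Cd3g differed by -0.52 and Cd3d by -0.074, and Cd8b1 by -0.042. With the block on these 4 arrays 0 of the 15 passed, against 0.713% of all probe sets. Its 95% intervals reached past a 2-fold difference for Il7r on 1448576_at (-1.21 to -0.0044) and Cd3g (-1.05 to 0.0125). Without AFO pool 2 alone the median was -0.80, and 0 of the 15 passed, against 0.258% of all.

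The genes beside them gave 0 calls too. Over the receptor and signalling list 11 of 15 genes were higher in AFO fat (median 0.058), over costimulation 9 of 12 (median 0.088), over naive T cells 6 of 9 (median 0.22) and over regulatory T cells 2 of 6 (median -0.028). Cytotoxic effectors had 4 of 10 higher (median -0.053), the interleukin 7 list 2 of 9 (median -0.11) and natural killer genes 2 of 9 (median -0.12). Over all genes, read alike, the median was -0.0095. Icos, a costimulatory receptor of activated T cells, was higher in AFO fat in all 3 pools, by 0.24, 0.44 and 0.33. Of all probe sets 9.44% were higher in all 3 pools and 12.5% lower in all 3. Icos did not pass (limma adjusted p = 0.999956 without the block and 0.998391 with it). In the same costimulation list Cd226 was also higher in all 3 pools, and Cd28 and Cd40lg were lower in all 3.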

How the data were processed

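Values were deposited as log2 levels. RMA in Affymetrix Expression Console 1.4 made them, per the submitters' processing notes. RMA corrects background, equalises the distributions of the arrays and summarises probes, so a change common to most genes is hidden and changes of dim genes are understated. The genome build behind the probe sets is not given in the sources used here.

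Groups and replicate numbers came from sample titles, and the sample descriptions give the same numbers as pool numbers. Of 45101 probe sets, 64 were controls, 34945 had 1 gene symbol by the platform annotation, 932 named more than 1 gene and 9160 had no entry. Only those with 1 symbol were used. All 34945 were fitted without a filter on level, since every probe set of the T cell genes was wanted. Of the 15, 3 had means under the 40th percentile (4.88). The fit was limma 3.58.1 in R 4.3.3 (lmFit, eBayes with trend) with Benjamini-Hochberg adjustment, tested first on simulated data. Text names all T cell probe sets and, by role, genes of the other lists.

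Deviations from the genotype means correlated, across probe sets, at 0.486, 0.733 and 0.371 for equal pool numbers 1, 2 and 3. The crossed pairs gave 0.392 (AFO pool 1, control pool 3) and 0.341 (AFO pool 3, control pool 1). Deviations cancel out within a genotype, so the shared step of pool 2 by itself raises every correlation between pools 1 and 3. These values therefore cannot tell whether pools 1 and 3 pair by number. The block took the numbers to pair the arrays, though no label tells what equal numbers have in common. Genes, lists and tests were chosen with earlier results of these data known. The number of arrays limits the precision.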

Additional observations from a re-analysis of the deposited data

How the results depend on the processing

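Over 19 alternatives (level filters, 1 or averaged probe sets a gene, renormalisation, other spread models, pool block, arrays left out), 0 T cell probe sets passed, with limma adjusted p from 0.819 to 0.999999. Over all probe sets 0 calls became 2 with pool number as a replicate block, 159 without both pool 2 arrays and 249 without them and with the block, and ran from 0 to 90 with 1 array left out, where 90 came without AFO pool 2. The block changed no T cell call. The median over the T cell probe sets ran from -0.80 to 0.77 with 1 array left out, lowest without AFO pool 2 and highest without control pool 2, and the CD4 less CD8 difference from -0.57 to -0.16. With array weights that difference was -0.38. Control pool 1 then weighed 11.7 and the other arrays 0.39 to 0.87, so the control side of the weighted values rests mostly on 1 array. The CD4 less CD8 difference was not computed under level filters, 1 probe set a gene, robust empirical Bayes or without the mean-variance trend. With the Cd8a readings chosen after seeing the data it was -0.30 for both, and the median without the _x_at Cd8a probe sets was -0.032. Of 258 T cell values, 208 kept their direction and 50 changed sign without a call. Many of the 208 could not change. Level filters, 1 probe set a gene and leaving out _x_at and _s_at probe sets keep each fitted difference unchanged. So do robust empirical Bayes, a fit without the mean-variance trend and the block on all 6 arrays. With 1 array left out 5 to 7 of the 15 changed sign, so directions were not stable. With array weights Cd2 was 0.15, Cd3g 0.23, Cd5 0.21 and Il7r 0.39 and 0.35. Without both pool 2 arrays, with or without the block, Cd3d was -0.074, Cd8a on 1425335_at -0.041 and Cd8b1 -0.042 (the cause was not tested). With 1 array left out the differences were Cd2 from -1.002 to 0.73, Cd3d from -1.12 to 1.12, Cd3e from -0.57 to 0.16, Cd3g from -1.79 to 1.05, Cd4 on 1419696_at from -0.57 to 0.22, Cd4 on 1427779_a_at from -0.064 to 0.27, Cd5 from -1.15 to 0.92, Cd8a on 1425335_at from -0.63 to 0.62, Cd8a on 1440164_x_at from 0.039 to 0.36, Cd8a on 1440811_x_at from -0.19 to 0.65, Cd8a on 1444078_at from -0.72 to 0.96, Cd8a on 1451673_at from -0.80 to 1.08, Cd8b1 from -1.10 to 1.24, Il7r on 1448575_at from -1.45 to 0.78, Il7r on 1448576_at from -1.64 to 0.77. Signal over background is not known from these values.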
